A study of Homo sapiens with 3 samples.

Results

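FLCN encodes folliculin, and FNIP1 and FNIP2 encode the folliculin-interacting proteins. HA-TFE3 binding at these 3 genes was taken from lists of ChIP-seq summits, the single bases that mark the centre of binding signal. A summit was counted for a gene when it lay in the span of the gene on hg19, given in whole kb, or within 5 kb of either end. This gave 13 of the 62287 summits of replicate 1 and 16 of the 72647 summits of replicate 2 on chromosomes 1 to 22 and X. The rule takes summits by their position and uses no score. FLCN, FNIP1 and FNIP2 held 0, 1 and 12 summits in replicate 1 and 0, 1 and 15 in replicate 2.

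The cells were HK-2, an established line from human kidney proximal tubule, carrying HA-TFE3 under doxycycline control. Chromatin was digested with an enzyme and precipitated through the HA tag. Of the 3 samples, replicates 1 and 2 are HA-TFE3 ChIP libraries of the same inducible cells, and the input DNA library was not analysed here. The labels mention culture for 24 h with or without 0.2 µg/ml doxycycline but do not say which condition each library had. There is thus a single ChIP group, with no uninduced or control precipitation analysed here, so no comparison of conditions could be made. The tagged protein came from a transgene, so binding of the cells' own TFE3 was not measured. Nothing in the labels says that the replicates came from separate cultures, and their spread may be technical.

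Folliculin forms a complex with either FNIP1 or FNIP2 on the lysosome surface. When amino acids are available, the complex acts as a GTPase-activating protein for RagC and RagD, the small GTPases that present TFE3 and TFEB to the kinase mTORC1. TFE3 is phosphorylated and held in the cytoplasm in this state, and it enters the nucleus when folliculin is lost. Inherited loss of FLCN causes Birt-Hogg-Dubé syndrome, in which kidney tumours occur. TFE3, a basic helix-loop-helix leucine zipper factor, binds E-boxes and the related CLEAR elements of lysosomal genes.

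Both FNIP genes had a summit of each library within 1 kb of their 5′ end, and a RefSeq promoter window is shown for each of them for that reason. Each runs from 250 bases before the annotated transcription start to 30 bases after it, on GRCh38.p14. Capitals mark the E-box CACGTG and the longest run of letters that both windows hold. The FNIP1 window is chr5:131796988-131797267 on the minus strand, and the FNIP2 window is chr4:158768776-158769055 on the plus strand.
FNIP1: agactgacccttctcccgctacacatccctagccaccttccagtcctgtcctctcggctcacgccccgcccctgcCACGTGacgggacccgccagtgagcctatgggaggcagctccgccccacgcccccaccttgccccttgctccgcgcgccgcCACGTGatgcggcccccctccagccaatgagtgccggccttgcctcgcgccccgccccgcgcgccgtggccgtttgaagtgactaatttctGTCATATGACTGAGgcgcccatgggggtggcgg
FNIP2: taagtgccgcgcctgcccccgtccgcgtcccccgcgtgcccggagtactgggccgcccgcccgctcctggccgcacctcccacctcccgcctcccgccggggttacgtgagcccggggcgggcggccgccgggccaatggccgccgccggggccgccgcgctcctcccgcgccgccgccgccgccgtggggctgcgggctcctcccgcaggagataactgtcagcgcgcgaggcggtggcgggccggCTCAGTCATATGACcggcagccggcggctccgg

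The shared run was 14 bases long. It reads gtcatatgactgag in FNIP1 and lies in the opposite orientation in FNIP2, as ctcagtcatatgac. In both genes it covered bases -3 to 11 around the transcription start, where 1 is the first transcribed base. Of the 35116 promoter windows of 300 bases in the table, 3 held this run on either strand, or 0.00854%. The third belonged to LINC00837, where the run began at base -95. Within it lies the palindrome GTCATATGAC, which 6 windows held (0.0171%). Besides FNIP1, FNIP2 and LINC00837 these were the windows of LIPA, which encodes lysosomal acid lipase, of SMARCAD1, a chromatin remodeller, and of LINC01087. The run was found by comparing the FNIP1 and FNIP2 windows, so its presence in both is how it was chosen.

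The E-box CACGTG occurred at bases -175 to -170 and -94 to -89 of the FNIP1 window and was in 7.26% of all windows. The 4 windows listed for the members had no match to TCACGTGA (0.98% of all windows), nor to that motif with a G before it and a C after it, the full CLEAR element (0.353%). CATGTG, the core of the M-box (11.1%), was in neither printed sequence. RefSeq lists a second FNIP2 window, downstream of the first and inside the gene. That window held TCATGTGA (1% of all windows), which contains CATGTG, at bases -143 to -136 on the opposite strand. CATATG (3.04%), the centre of the palindrome, also occurred once more in the second FNIP2 window, at bases -59 to -54. The single FLCN window held none of the motifs searched. All motifs were searched on both strands, and a match is a run of letters, not a measured binding site. The windows and the summits are on different builds, so whether a summit falls inside a window was not determined.

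FLCN spans 17115 to 17141 kb of chromosome 17, in band 17p11.2 on the minus strand. With the flanks, 36 kb, it held 0 summits in each list. A stretch without any summit of either list ran for 74.0 kb, from base 17109757 to 17183755, and contained the whole gene. Stretches between neighbouring summits that were at least this long covered 62.7% of the genome between summits. An interval of 36 kb is also short: 32.4% of windows of this length held at least 1 shared summit, meaning one listed in both libraries, and the others held none. A count of 0 allows up to 83.3 summits per Mb at this length (3 counts, counting error only). The 95% Poisson interval, the kind given below for FNIP1 and FNIP2, reaches 102.5 per Mb at FLCN. A low density at FLCN was therefore not detectable.

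The nearest summits lay beyond the 3′ end of FLCN. A pair at bases 17109743 in replicate 1 and 17109757 in replicate 2 was 0.257 and 0.243 kb outside the flank. The span is given in whole kb, so the distance of this pair from the flank is smaller than the rounding of the span. The scores were 30.4 and 28.3, at score percentiles of 94.1 and 91.6, where the percentile is the rank of a summit within its own list and 100 is the highest. Each library thus placed this pair above percentile 90 of its list, just past the limit used for FLCN. A second pair followed at bases 17108823 and 17108830, at percentiles 38.1 and 63.2. PLD6, which encodes a phospholipase D family protein of the mitochondrial surface, is the next protein-coding gene on this side. On the 5′ side, toward COPS3, a subunit gene of the COP9 signalosome, the nearest summit found in both lists was 43.1 kb from the span. The distances of these pairs from PLD6 and COPS3 were not determined.

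FNIP1 spans 130977 to 131133 kb of chromosome 5, in 5q31.1 on the minus strand. With the flanks it had a single summit in each list, 0.215 kb inside the 5′ end of the span as rounded in replicate 1. This distance is smaller than the rounding, so whether the summit lies before or after the transcription start was not determined. The summits were at base 131132785 in replicate 1 and 131132830 in replicate 2, 45 bp apart, and formed a shared pair. The score was 19.1 in replicate 1 and 34.1 in replicate 2, at percentiles 83.0 and 94.97. The rank was 10435 in replicate 1 and 3610 in replicate 2, so the libraries both placed this summit high but differed in how high. Over all of the 166 kb, 65.1% of windows of the same length held at least 1 shared summit, so the count of 1 at FNIP1 is near that background. Its density, 6.02 shared summits per Mb (95% Poisson interval 0.153 to 33.6), was 0.386 times the 15.6 per Mb of the genome, and the interval includes the genome's value.

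The rest of the FNIP1 span was empty in both lists. From its 5′ summit, 161.6 kb without a summit of either library ran through the gene body to base 130971149. Stretches between neighbouring summits that were at least this long covered 43.6% of the genome between summits. At the far end of the empty stretch lay a pair, 5.86 kb past the 3′ end of the span and 0.859 kb outside the flank in replicate 1. Its scores were 30.7 at base 130971141 of replicate 1 and 30.1 in replicate 2, at percentiles 94.2 and 92.8. RAPGEF6, which encodes a guanine nucleotide exchange factor for Rap GTPases, is the neighbour on that side. RAPGEF6 is read from the same strand as FNIP1, so its 5′ end faces the 3′ end of FNIP1. Upstream, toward MEIKIN, a meiotic kinetochore gene, the next shared pair was 17.9 kb from the span, at percentiles 57.2 and 38.9.

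**Figure D1:**
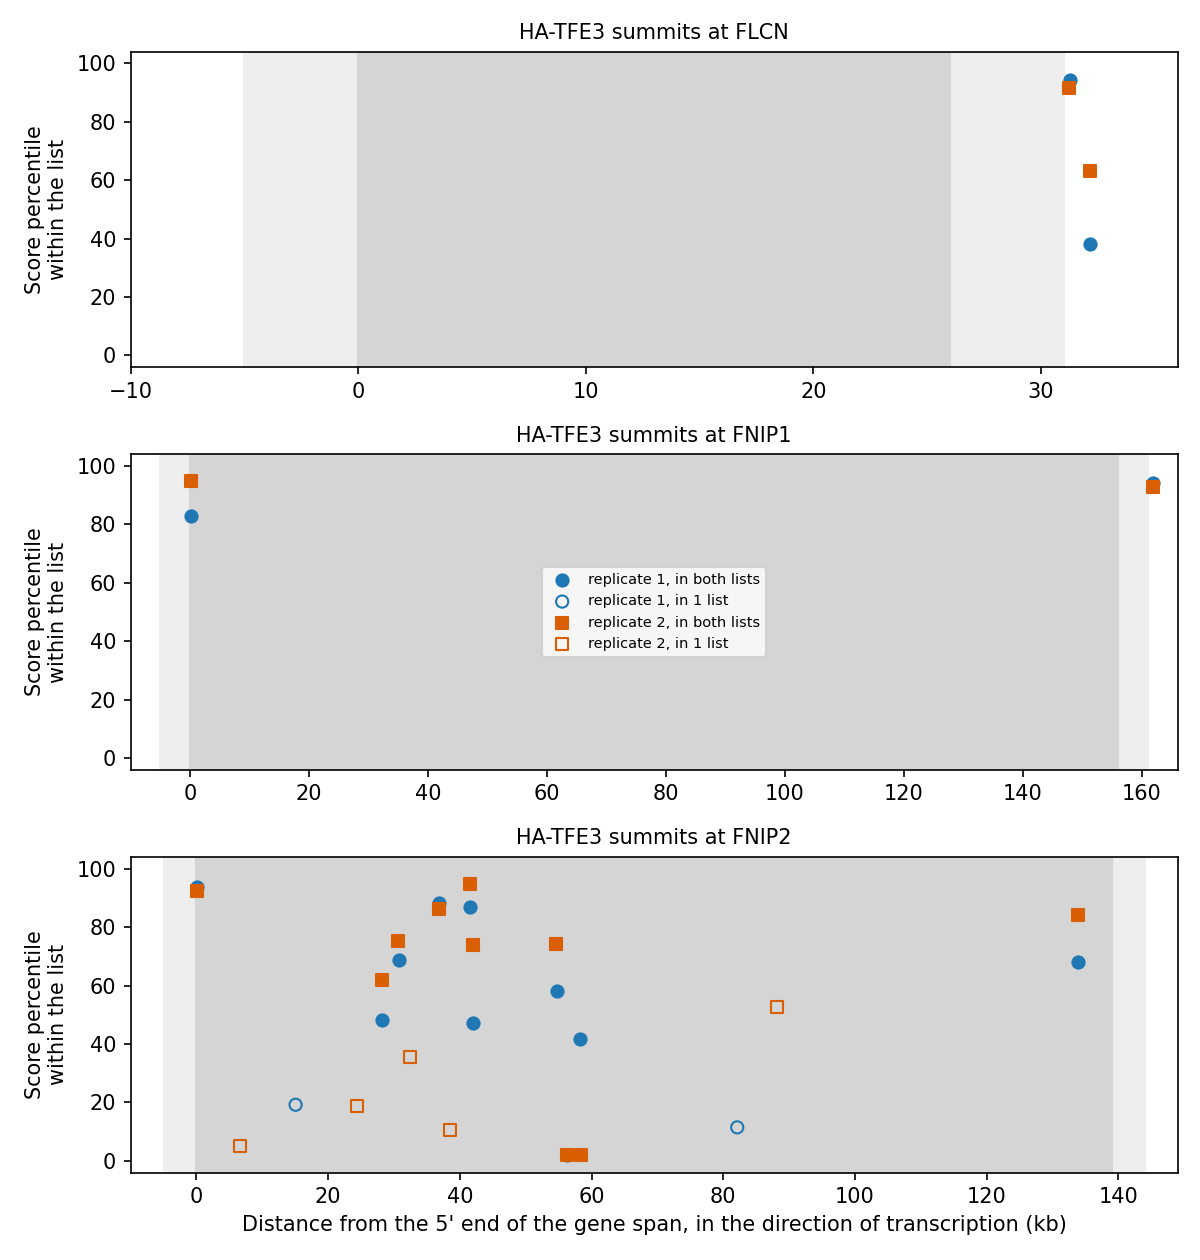
Summits of HA-TFE3 at FLCN, FNIP1 and FNIP2 by distance from the 5′ end of the gene span (x axis, kb, in the direction of transcription) and score percentile within the list (y axis). Circles are replicate 1 and squares replicate 2, filled where the summit is in both lists, dark grey is the gene span light grey the 5 kb flanks, and summits up to 10 kb outside the span are drawn too; FLCN holds no summit inside the flanks, FNIP1 a pair at its 5′ end, and FNIP2 has 9 of its 10 pairs in its first 60 kb.

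FNIP2 spans 159690 to 159829 kb of chromosome 4, in 4q32.1 on the plus strand, and held most of the summits. There were 12 in replicate 1 and 15 in replicate 2, of which 10 formed shared pairs. In 149 kb this was 67.1 shared summits per Mb (95% Poisson interval 32.2 to 123.4), 4.30 times the genome's density and 5.50 times the 12.2 per Mb of chromosome 4. Of windows of the same length, 62.8% held at least 1 shared summit and 4.89% held at least 10. The median window held 1 and the fullest 28. FNIP2 thus held more than most windows of its length, at a count that 4.89% of them reached, and fewer than the fullest. The interval of FNIP2 overlapped that of FNIP1 slightly, and neighbouring summits are not independent, so the difference between both genes was not tested.

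**Figure D2:**
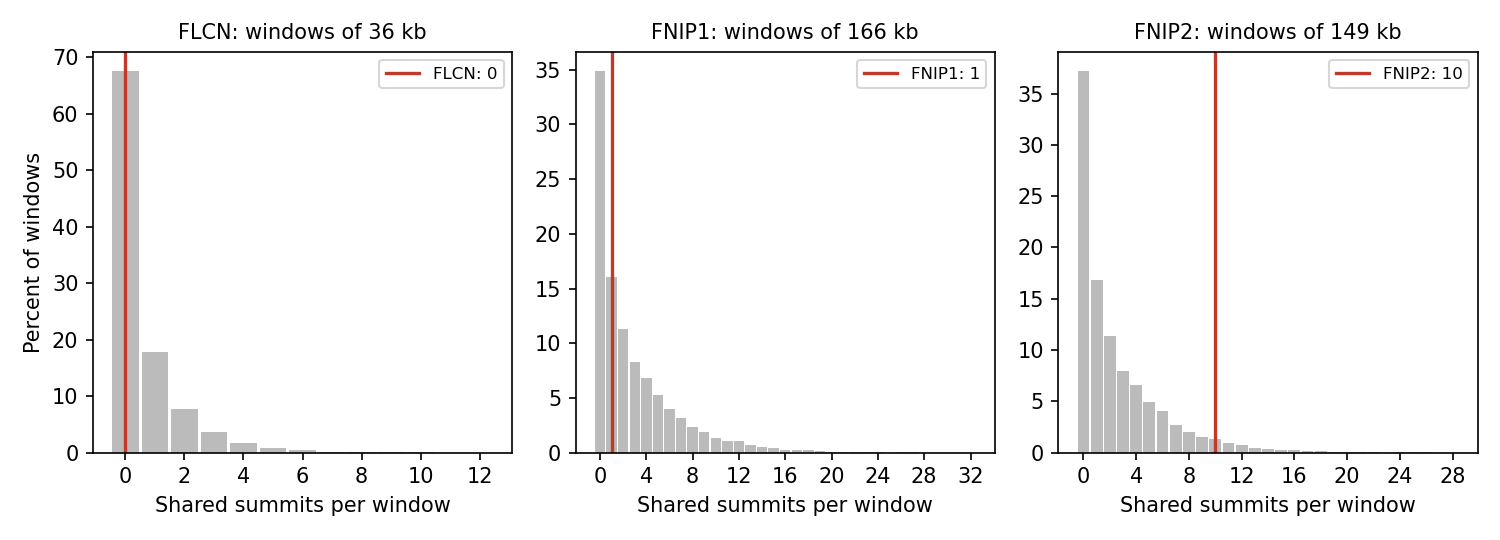
Shared HA-TFE3 summits (x axis) in non-overlapping windows of the genome as long as each gene span with its flanks, as percent of windows (y axis, starting at 0). Red lines mark the 0, 1 and 10 shared summits of FLCN, FNIP1 and FNIP2, where 32.4%, 65.1% and 62.8% of the windows hold at least 1.

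The pair with the highest mean percentile at FNIP2 was at its 5′ end. It lay at base 159690070 in replicate 1 and 159690069 in replicate 2, 1 bp apart, within 0.1 kb of the start of the span as rounded. Its scores were 29.6 and 29.7, at percentiles 93.6 and 92.5 and ranks 3905 and 5464. Both libraries thus gave it nearly the same place. It was the only one of the 10 pairs above percentile 90 in both lists, against 9.11% of all shared summits. FNIP1 and FNIP2 therefore each had a shared summit within 1 kb of the 5′ end, and FLCN had none. Over the genome, 3.09% of windows of 2 kb held a shared summit, a background that does not separate promoters from other sequence.

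Further pairs of FNIP2 lay inside the gene. Whether any of them is at the start of the second RefSeq window of FNIP2 was not determined. The pair at bases 159731475 and 159731466 was 9 bp apart, with scores of 22.02 and 33.5 at percentiles 87.0 and 94.7. The pair at bases 159726902 and 159726905, 3 bp apart, scored 23.2 and 22.4 at percentiles 88.3 and 86.4. These internal pairs, at 41.5 and 36.9 kb from the 5′ end, ranked 8120 and 7184 in replicate 1, below the 3905 of the pair at the start. In replicate 2 they ranked 3866 and 9772, on either side of its 5464. The pair at bases 159720688 and 159720661, 30.7 kb in, had percentiles of 68.8 and 75.2. Those at bases 159718164 and 159718149, 28.2 kb in, had percentiles of 48.3 and 62.0.

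A neighbour of the internal pair with the highest mean percentile, at 41.5 kb, was also found in both lists. At bases 159731994 and 159732019 a pair had percentiles of 47.2 and 74.0, only 519 bp from the stronger summit in replicate 1 and 553 bp in replicate 2. This was the smallest spacing between shared summits at the gene. A pair at 54.7 kb, bases 159744748 and 159744658, had percentiles of 58.2 and 74.2. Its summits were 90 bp apart, near the pairing limit of 100 bp.

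The weakest pairs closed this stretch. At 56.3 kb, bases 159746260 and 159746347 were 87 bp apart and scored 2.64 and 2.47, at percentile 1.91 in both lists. At 58.2 kb, bases 159748247 and 159748340 were 93 bp apart, at percentiles 41.7 and 1.91. These low pairs, like the one at 54.7 kb, counted as shared only through the wider part of the limit. The other 7 pairs of FNIP2 were at most 30 bp apart, and the median over its 10 pairs was 20 bp, against 26 bp for all pairs of the genome.

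After the first 9 pairs, which span 58.2 kb, no shared summit occurred for 75.7 kb. How common such gaps between shared summits are in the genome was not determined. The last pair, at bases 159823937 and 159823945, lay 5.06 kb before the 3′ end of the span, with scores of 12.7 and 20.7 at percentiles 68.0 and 84.1. SPMIP2, a gene read from the other strand, overlaps the 3′ part of FNIP2 in RefSeq, so a summit there cannot be given to FNIP2 alone. Outside the flanks the nearest summits found in both lists were 45.4 kb upstream, at percentiles 78.1 and 66.1, and 89.0 kb downstream of the span, at 96.1 and 98.6. The upstream distance was shorter than the 75.7 kb without a shared summit inside the gene.

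**Figure D3:**
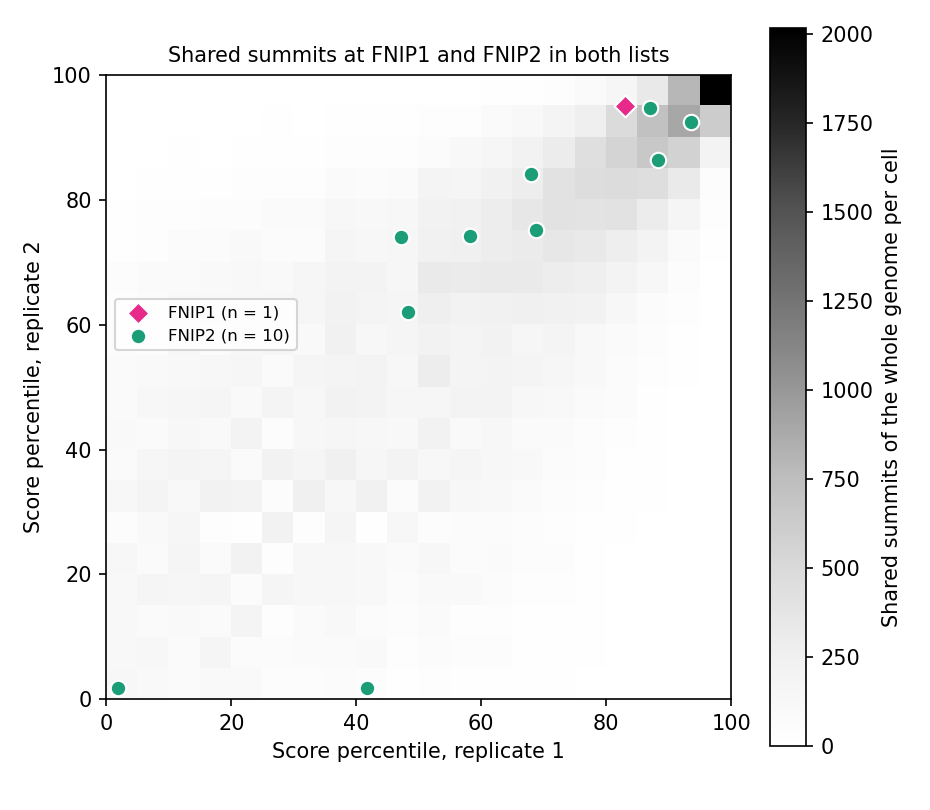
Score percentile of shared summits in replicate 1 (x axis) and replicate 2 (y axis), with all 47396 shared summits as grey cells of 5 by 5 percentile points and those of FNIP1 and FNIP2 as coloured points. The pairs at the 5′ ends, at 83.0 and 94.97 for FNIP1 and 93.6 and 92.5 for FNIP2, lie at the upper right, and a pair of FNIP2 lies at 1.91 in both lists.

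Summits without a partner were all in FNIP2 and mostly low. Replicate 1 had 2 of them, at 15.1 and 82.1 kb from the 5′ end, at percentiles 19.2 and 11.5. Replicate 2 had 5, at 6.60, 24.4, 32.4, 38.5 and 88.1 kb, at percentiles 5.15, 18.7, 35.6, 10.6 and 52.7. The nearest summit of the other list was between 1588 and 8452 bp away from each, so none was just beyond the pairing limit. The summit of replicate 2 at 88.1 kb, base 159778141, was the only one of the 7 above the median of its list.

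Over the 3 genes, 11 of 13 summits of replicate 1 had a partner, or 84.6% (95% exact binomial interval 54.6 to 98.1), against 76.1% of its whole list. In replicate 2 it was 11 of 16, or 68.8% (41.3 to 89.0), against 65.2%. Both shares are near the background of their list, which their intervals include. Of the 10 pairs at FNIP2, 6 were above the median score in both lists, against 51.1% of all shared summits, so their scores as a group were not set apart from the rest. The median percentile of all FNIP2 summits was 53.3 in replicate 1 and 62.0 in replicate 2. The lists give no read counts, so the depth behind these summits is unknown, and the intervals cover counting error only.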

How the data were processed

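For each of the 2 ChIP libraries the authors deposited a list of 1-base summits, with names and a score. No label states the scale of the score, and it was used only to rank summits within its own list. The build is hg19, per the submitters' processing notes; peak caller, thresholds, aligner and any role of the input were not given in the sources used here.

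Replicates 1 and 2 held 62322 and 72692 summits. Positions were made 1-based and chromosomes 1 to 22 and X kept. Summits of the lists were paired when mutually nearest and within 100 bp, and a shared summit was placed by its position in replicate 1. The pairing was tested on simulated lists. Windows of equal length were laid end to end, leaving out centromeres, variable heterochromatin and stalks in the hg19 band table of circlize 0.4.16; whole chromosome lengths gave the densities. Windows are not genes: gene spans of hg19 beyond the 3 members were not used here, so a planned list of lysosomal amino acid sensing genes was not counted.

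Promoter windows and gene neighbours are from RefSeq on GRCh38.p14; all 3 members matched by symbol, and no coordinate was converted. The members and lists were chosen with earlier results of these data known. Every summit of the spans was to be named where a gene had at most 12 shared. The shared run of the promoters, the summits outside the flanks and the empty stretches were added after values were seen. No test was run, since a single group of 2 libraries has nothing to compare. Python 3.11.15, NumPy 2.4.6, pandas 2.3.3, SciPy 1.17.1 and matplotlib 3.10.9 were used.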

Additional observations from a re-analysis of the deposited data

How the results depend on the processing

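The alternatives were pairing limits of 50, 200 and 500 bp, no flank, flanks of 10 kb, summits above the median score, and each list alone. With flanks of 10 kb FLCN held 2 summits per list, both shared, at 2.79 times the genome's density, against 0. Both lay beyond its 3′ end, toward PLD6, and windows of that length were not counted. FNIP1 with flanks of 10 kb also held 2, both shared, the added pair lying past its 3′ end toward RAPGEF6. The relative density of FNIP1 was then 0.728 against 0.386. It was 0.487 at 50 bp and 0.770 above the median score. The relative density of FNIP2, 4.30, was 3.80, 4.07 and 3.997 at 50, 200 and 500 bp, 4.61 with no flank, 4.03 with 10 kb and 5.15 above the median score. FNIP2 then kept 6 shared summits, with 7.5 summits per list in place of 13.5 and a median percentile of 76.5 in place of 57.7. The filter removes the low summits, so the smaller count and the higher percentile follow from it. At 50 bp it had 7 shared summits, and the share of summits with a partner, a mean of 76.7% over both lists, was 55.8%. With replicate 1 or replicate 2 alone FNIP2 had 12 or 15 summits, at median percentiles of 53.3 or 62.0, FNIP1 stood at 83.0 or 94.97, and the share with a partner was 84.6 or 68.8%. Of 69 values under alternatives, 51 stayed within 1.5 times the count or within the spread between libraries. Part of these could not have moved, so the 51 is no measure of stability. A percentile or share from 1 list always lies within the spread of both lists around their mean. The 0 at FLCN could change only with wider flanks. Shared summits need both lists and cannot be counted without a replicate. No paired analysis was possible because a single ChIP group was analysed.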
